A study of Mus musculus with 6 samples.

Results

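Fatty acid oxidation genes were examined in megakaryocyte-lineage cells of wild-type and Txnip knockout mice. They are 31 genes, chosen by symbol from the 24410 in the deposited table and not by their values, though with earlier results of these data known. All 31 were present. The cells came from the marrow of mice aged 5 months of the C57BL/6 strain, either wild type (WT 1 to WT 3) or Txnip -/- (KO 1 to KO 3), with 1 RNA-seq library per replicate. Lineage-negative marrow cells of both genotypes were given stem cell factor and thrombopoietin in culture, and CD41+ cells were sorted on day 3. CD41 is the integrin subunit that marks the megakaryocyte lineage. The labels do not say how the knockout was made, whether mice were pooled, or what a replicate number stands for.

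Long-chain fatty acids are joined to coenzyme A by acyl-CoA synthetases and carried into mitochondria as carnitine esters. There a repeated spiral of dehydrogenation, hydration, a further dehydrogenation and thiolytic cleavage releases acetyl-CoA, and the electrons of the first step pass through the electron transfer flavoprotein to the respiratory chain. Very long chains are first shortened in peroxisomes. PPAR nuclear receptors and the PGC-1 coactivators are the textbook regulators of these genes. Txnip, a thioredoxin-binding alpha-arrestin, restrains glucose uptake and is known as a link between glucose and lipid use.

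Values are FPKM, a level per length of transcript, so levels of different genes can be set side by side. Differences are on the log2(FPKM + 1) scale, KO minus WT, which understates changes of low genes. They come from limma, a linear model with moderated variances, fitted to the 11249 genes that reached 1 FPKM in 3 or more libraries and adjusted over all of them by the Benjamini-Hochberg method. Txnip was at 112, 228 and 143 FPKM in WT and at 0, 0.04 and 0 in KO (difference −7.26, SE 0.28; limma, adjusted p = 2.02e-05), so it matched the genotype labels in all 6 libraries. In both genotypes the Y-linked Ddx3y was above 20 FPKM in libraries 1 and 2 and listed at 0 in library 3, where Xist was high, so number 3 also differs from the others in sex. Depth, estimated from the spacing of low values, was about 20400000 fragments in WT 1, 19900000 in WT 2 and 14100000 in KO 1. No usable estimate was obtained for WT 3, KO 2 and KO 3, whose values moved with a setting of the method (in KO 2 from 5400000 to 23300000). The values of a gene are given in the order of the replicate numbers 1, 2 and 3, and a pair is the WT and the KO library that share a number.

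The module as a whole was expressed in these cells, apart from 3 members. Of the 31 genes, 28 passed the filter, and their mean level over the 6 libraries ran from 1.73 FPKM to 221 FPKM, with a median of 35.7 FPKM against 14.0 FPKM over all genes tested. The most abundant was Etfb, a subunit of the electron transfer flavoprotein. The 3 genes that did not pass were Ehhadh, Ppara and Ppargc1a, which are described with their groups and carry no test.

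**Figure D1:**
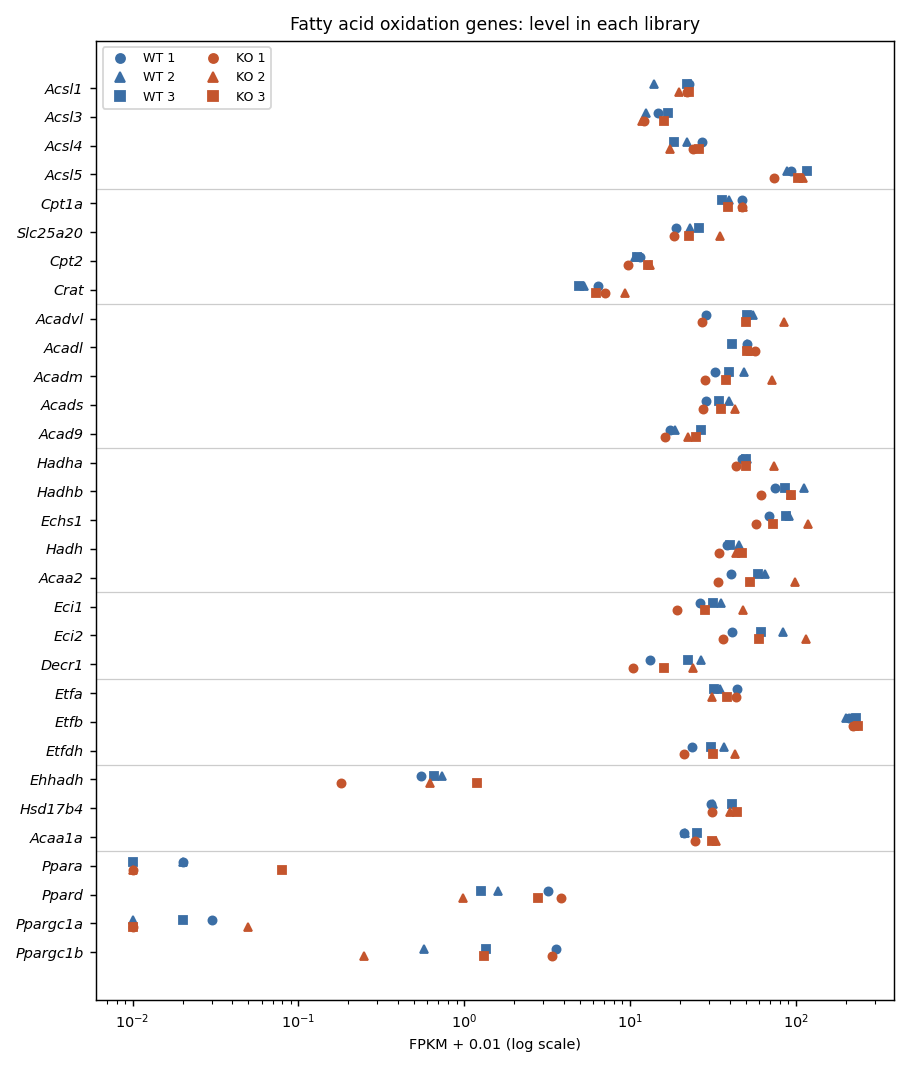
FPKM plus 0.01 on a log axis for the 31 genes in each of the 6 libraries, blue for WT and red for KO, with circles, triangles and squares for replicates 1, 2 and 3; grey lines separate the groups by role. Most enzymes lie between 10 and 120 FPKM with the genotypes intermixed, while Ppara and Ppargc1a lie below 0.1 FPKM.

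No member passed the test between genotypes. Of the 28 tested, 0 were called higher and 0 lower, where the whole table had 0.0178% of genes called, and 0.0267% with the replicate number as a block, which also called 0 members. At an unadjusted p under 0.05 the limma fit without the replicate number gave 0 members (0.676% of all genes), and the fit with the number as a block gave 1, Acaa1a (6.93% of all genes). In 0 members were the KO libraries all above or all below the WT libraries (4.35% of all genes). Values were higher in KO for 20 members and lower for 8, or 71.4% higher against 63.4% of all genes. The median difference was 0.07 over the members and 0.06 over all genes tested, and the widest difference of a member, 0.38, was that of Crat.

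The 3 pairs did not go the same way. In pair 1 the KO value was the lower for 22 of 28 members (44.5% of all genes), with a median of −0.10 against 0.04 for all genes. In pair 2 it was the higher for 20 members (58.8% of all genes), with a median of 0.27 against 0.09. In pair 3 it was the higher for 16 members (57.8% of all genes), with a median of 0.03 against 0.05. Only 5 members were higher in KO in all 3 pairs (20.4% of all genes), namely Crat, Acadl, Etfb, Hsd17b4 and Acaa1a. Acsl3, Decr1 and Ppargc1b were lower in all 3 (8.68% of all genes). Leaving out WT 1 or KO 2 turned the members' median to −0.02 or −0.05.

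**Figure D2:**
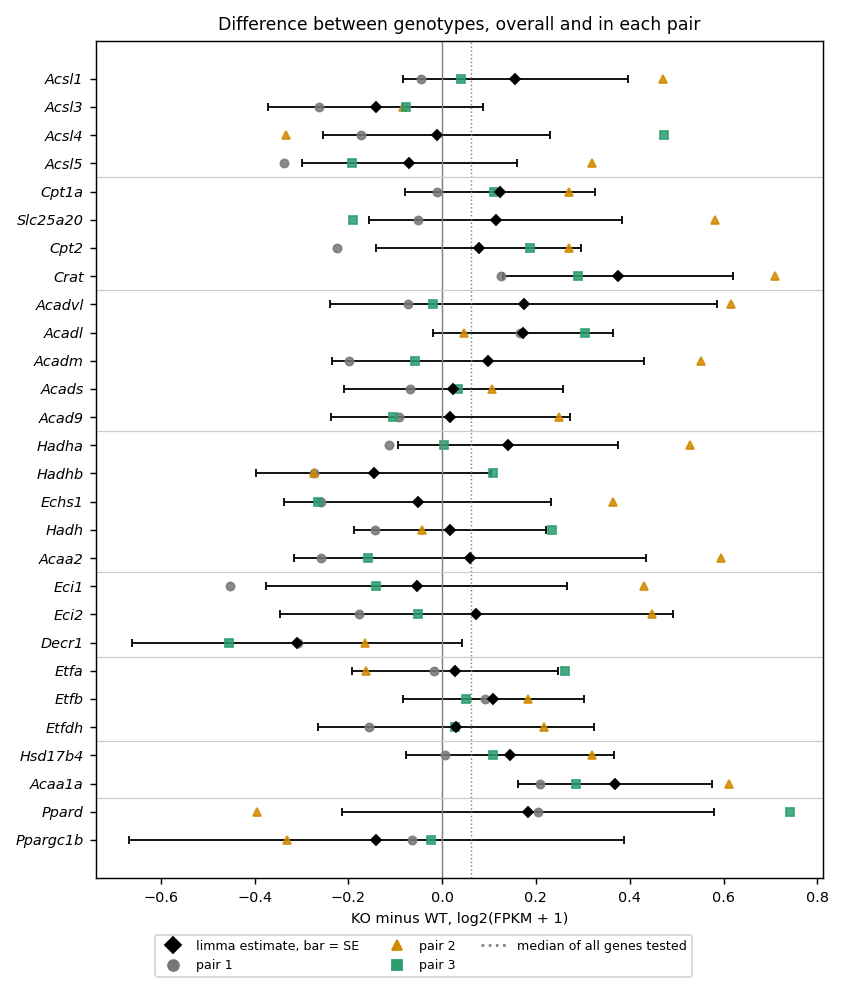
KO minus WT on the log2(FPKM + 1) scale for the 28 tested genes; black diamonds are limma estimates with their SE (n = 3 per genotype), and the grey, orange and green symbols are the differences within pairs 1, 2 and 3. The dotted line is the median of all genes tested, 0.06, and the pair 2 symbols are the rightmost for most enzymes of the spiral.

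Fatty acid activation showed no common direction. Long-chain acyl-CoA synthetases join a fatty acid to coenzyme A, the step that commits it to oxidation or to lipid synthesis. Acsl5, which is linked to the endoplasmic reticulum and mitochondria, had the highest level of the 4, at 94.1, 88.7 and 117.5 FPKM in WT and 74.2, 111 and 103 in KO, and the genotypes overlapped. Acsl1, the main form of oxidative tissues, ranged from 14.0 to 22.8 FPKM, with WT 2 the low library. Acsl4, which prefers arachidonic acid, ranged from 17.4 to 27.3 FPKM. Acsl3, a form found on lipid droplets, ranged from 11.8 to 17.0 FPKM. The 4 differences were 0.16 for Acsl1, −0.14 for Acsl3, −0.01 for Acsl4 and −0.07 for Acsl5, each within 1 SE of 0.

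The carnitine system had higher KO values in 4 of 4 genes, none past the threshold, where 63.4% of all genes were higher. The pair medians were −0.03, 0.43 and 0.15. All tested acyl-CoA dehydrogenases (5), electron transfer flavoprotein genes (3) and peroxisomal enzymes (2) had higher KO values too. Cpt1a, the outer membrane carnitine palmitoyltransferase that malonyl-CoA inhibits, sets the entry of fatty acids into mitochondria. It was at 47.7, 39.5 and 36.2 FPKM in WT and at 47.3, 47.8 and 39.1 in KO, a difference of 0.12 (SE 0.20). Slc25a20, the carnitine-acylcarnitine carrier of the inner membrane, ranged from 18.3 to 34.9 FPKM with KO 2 the highest. Cpt2, which returns the acyl group to coenzyme A inside, lay between 9.75 and 13.1 FPKM.

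Crat, carnitine acetyltransferase, which buffers short acyl groups, differed most of the 28. It was at 6.39, 5.28 and 4.92 FPKM in WT and at 7.06, 9.27 and 6.24 in KO, so KO 3 lay below WT 1 while each KO library lay above the WT library of its number. The difference was 0.38 (SE 0.25; limma, adjusted p = 1.00), and with the replicate number as a block the adjusted p was 0.734.

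Acyl-CoA dehydrogenases, which carry out the first step of the spiral for different chain lengths, gave 0 calls between genotypes. In the limma F test over the 3 replicate numbers, which called 35.1% of all genes, 2 of the 5 were called, Acadvl and Acadm. In the limma comparison of number 2 with number 1, which called 13.3% of all genes above, these 2 and Acads were higher in number 2. Acadvl, the very-long-chain form of the inner membrane, was at 28.7, 55.5 and 50.5 FPKM in WT and at 27.2, 85.5 and 49.8 in KO. Both libraries numbered 1 were low and KO 2 was the highest. Its difference between genotypes was 0.17 (SE 0.41).

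Acadm, the medium-chain dehydrogenase whose loss causes a common human oxidation disorder, was at 32.8, 48.4 and 39.8 FPKM in WT and at 28.4, 71.5 and 38.2 in KO. The same libraries were low and high as for Acadvl, and the genotypes overlapped (difference 0.10, SE 0.33). Acads, the short-chain form, followed the order 1, 3, 2 in both genotypes, between 27.4 and 42.8 FPKM. Acad9, which also assembles complex I, ranged from 16.3 to 26.9 FPKM and was highest in WT 3.

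Acadl, the long-chain form, did not follow that order. It was at 50.7, 51.2 and 41.1 FPKM in WT and at 57.0, 52.9 and 50.9 in KO, with each KO library above the WT library of its number (difference 0.17, SE 0.19; limma, adjusted p = 1.00).

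Of the 5 genes of the later steps of the spiral, the F test over the numbers called Acaa2 and Echs1, and the comparison of number 2 with number 1 called these and Hadhb higher in number 2. Hadha and Hadhb encode the subunits of the trifunctional protein, which hydrates, oxidises and cleaves long chains as 1 complex. Hadha was at 47.3, 51.2 and 49.9 FPKM in WT and at 43.7, 74.3 and 50.1 in KO, where KO 2 alone stood above a narrow range. Hadhb was at 74.6, 113 and 86.7 FPKM in WT and at 61.6, 93.2 and 93.6 in KO, with WT 2 the highest. In pair 2 the subunits thus went opposite ways, by 0.53 for Hadha and −0.27 for Hadhb.

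Acaa2, the mitochondrial thiolase that releases acetyl-CoA, was at 40.8, 65.6 and 59.1 FPKM in WT and at 33.9, 99.6 and 52.8 in KO. Echs1, the short-chain enoyl-CoA hydratase, was at 68.7, 91.4 and 87.5 FPKM in WT and at 57.3, 118 and 72.7 in KO. In both genes KO 1 was the lowest and KO 2 the highest library, so the KO group enclosed the WT group. Hadh, the dehydrogenase of shorter hydroxyacyl chains, had a narrower range, from 34.6 to 47.6 FPKM.

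The auxiliary enzymes, which reposition or remove the double bonds of unsaturated fatty acids so that they can enter the spiral, differed between replicate numbers in 3 of 3 (limma F test over the 3 numbers, described further on, which called 35.1% of all genes). Eci2, an enoyl-CoA isomerase of mitochondria and peroxisomes, was at 41.1, 84.3 and 62.1 FPKM in WT and at 36.2, 115 and 59.9 in KO. Eci1, its mitochondrial counterpart, was at 26.6, 35.5 and 31.5 FPKM in WT and at 19.2, 48.2 and 28.5 in KO. In each, libraries 1 were lowest, libraries 3 intermediate and libraries 2 highest in both genotypes.

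Decr1, the dienoyl-CoA reductase, shared that order with WT 2 rather than KO 2 on top. It was at 13.2, 26.9 and 22.4 FPKM in WT and at 10.5, 23.9 and 16.1 in KO. Each KO library lay below the WT library of its number, and the groups overlapped (difference −0.31, SE 0.35; limma, adjusted p = 1.00, and 0.740 with the block).

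The electron transfer flavoprotein passes electrons from the dehydrogenases to Etfdh, its membrane oxidoreductase. Etfb was at 209, 200.3 and 229 FPKM in WT and at 223, 228 and 238 in KO, the smallest ratio of highest to lowest library among the 28 members (1.19), with overlapping genotypes (difference 0.11, SE 0.19). Its partner Etfa was much lower, from 31.3 to 44.1 FPKM, and highest in libraries 1. Etfdh was at 23.7, 37.1 and 31.01 FPKM in WT and at 21.1, 43.3 and 31.6 in KO, in the order 1, 3, 2 in both genotypes. The 2 subunit genes of the flavoprotein thus did not share the pattern of Etfdh.

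Among peroxisomal enzymes, Acaa1a, the thiolase of that compartment, was the member with the smallest p. It was at 21.3, 21.4 and 25.3 FPKM in WT and at 24.8, 33.2 and 31.04 in KO. KO 1 lay just below WT 3, and the other KO libraries lay above every WT library. The difference was 0.37 (SE 0.21; limma, adjusted p = 1.00), and with the block the adjusted p was 0.690. Its close paralog Acaa1b, with which reads could be shared, was listed at 0.08 FPKM in WT 1 and at 0 in the other 5 libraries.

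Hsd17b4, the D-bifunctional protein of peroxisomal oxidation, ranged from 30.97 to 44.4 FPKM (difference 0.14, SE 0.22). Ehhadh, the L-bifunctional protein and a well-known PPAR alpha target, was low, at 0.54, 0.73 and 0.65 FPKM in WT and 0.17, 0.61 and 1.18 in KO. It was not tested.

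Of the regulators, Ppard and Ppargc1b were detected at low levels and Ppara and Ppargc1a barely. Ppara, the receptor that drives these genes in liver, was at or below 0.07 FPKM in every library, and Ppargc1a, the coactivator of muscle and brown fat, at or below 0.04. Ppard, the widely expressed PPAR delta, was at 3.20, 1.59 and 1.26 FPKM in WT and at 3.84, 0.97 and 2.78 in KO. Ppargc1b, the related coactivator, was at 3.57, 0.56 and 1.35 FPKM in WT and at 3.37, 0.24 and 1.31 in KO. Libraries 1 were the highest and libraries 2 the lowest for Ppargc1b in both genotypes, the reverse of Eci2 and Acadvl.

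To describe the spread between replicate numbers, the 3 numbers were compared in a limma model with genotype as a term, a test chosen after the values were seen. Of the 28 members, 9 differed between numbers, or 32.1%, which is near the 35.1% of all genes. Number 2 was above number 1 for 10 members past the threshold (35.7%, against 13.3% of all genes) and below it for 2 (7.14%, against 27.7%). Number 3 was above number 1 for 2 members, Acadvl and Decr1 (2.93% of all genes), and below it for 1, Ppargc1b (8.93%). Between numbers 2 and 3, 0 members were called above (2.22% of all genes) and 0 below (2.32%). Without a filter on low values the F test over the numbers called 0 members (0.088% of all genes). The members called also changed when a library was left out. That leaves 1 library in a number, so those counts are given only in the closing section on processing.

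Both libraries 1 lay below both libraries 2 in 15 members (53.6%, against 24.9% of all genes) and above them in 5 (17.9%, against 45.2%). In the same 15 members libraries 1 also lay below all 4 others (16.5% of all genes). The full order 1, 3, 2 held in both genotypes for 10 members (10.6% of all genes), and the full reverse order for 1, Ppargc1b (21.3% of all genes). KO 2 was the highest library for 14 members (20.4% of all genes) and KO 1 the lowest for 16 (17.8% of all genes).

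**Figure D3:**
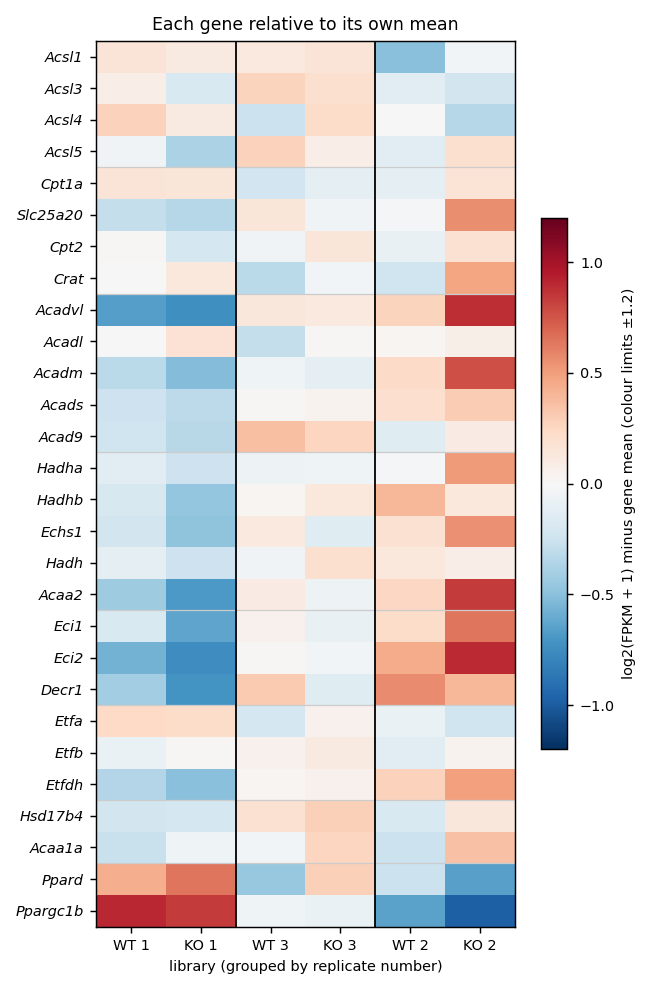
Colours give log2(FPKM + 1) of each gene minus its mean over the 6 libraries, red above and blue below, with libraries ordered by replicate number; grey lines separate the groups by role. Libraries 1 are blue for most enzymes of the spiral and KO 2 is the reddest column, while Ppard and Ppargc1b show the opposite colours in libraries 1 and 2.

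The 9 genes that differed between numbers were Eci2, Acadvl, Acaa2, Decr1, Acadm, Eci1, Etfdh, Echs1 and Ppargc1b. Number 2 minus number 1 was largest for Eci2, at 1.33 (SE 0.20; limma F test, adjusted p = 0.00328). For Acadvl it was 1.27 (SE 0.21, adjusted p = 0.00428), and for Decr1 1.05 (SE 0.18, adjusted p = 0.00513), limma F tests over the 3 numbers. Acaa2 differed by 1.10, Acadm by 0.92, Eci1 by 0.84, Etfdh by 0.81 and Echs1 by 0.72. Ppargc1b was the only one of the 9 with the opposite sign, at −1.68 (SE 0.27; limma F test, adjusted p = 0.00431).

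**Figure D4:**
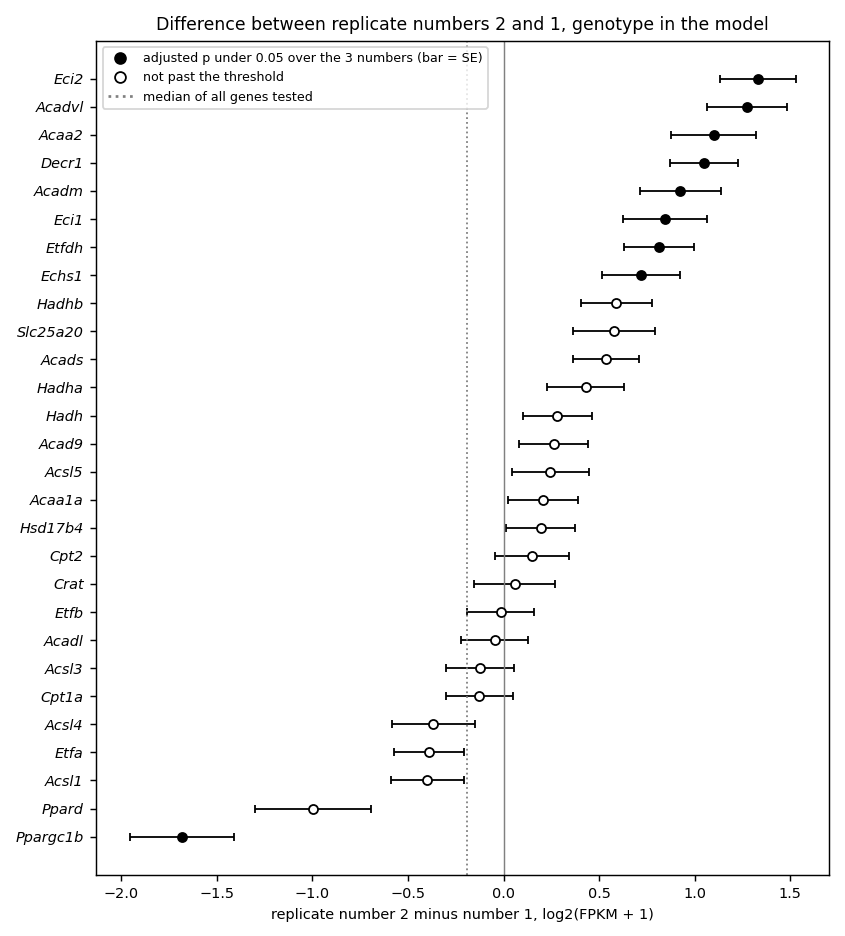
Number 2 minus number 1 on the log2(FPKM + 1) scale for the 28 tested genes, with SE, from the limma model with genotype as a term; filled circles differ between the 3 numbers at an adjusted p under 0.05. Eci2 (1.33) is at the top, Ppargc1b (−1.68) at the bottom, and the dotted line is the median of all genes tested, −0.19.

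Members did not all go the same way between numbers 1 and 2. Number 2 was above number 1 in 19 members and below it in 9, where 38.8% of all genes were above. Beside Ppargc1b, the F test over the numbers called 2 of the 5 acyl-CoA dehydrogenases, 2 of the 5 genes of the later steps, 3 of the 3 auxiliary enzymes and Etfdh. It did not call Acadl, Acads, Acad9, Hadha, Hadhb, Hadh, Hsd17b4, Acaa1a, Etfa, Etfb or Ppard. Nor did it call any of the 4 synthetases or the 4 genes of the carnitine system. Of these, Acads, Hadhb and Ppard did pass in the comparison of number 2 with number 1. Being uncalled does not show that a member did not differ, and no test compared these groups with each other. Which members were called depended on the setting. Slc25a20, Acad9 and Acads were called with quantile normalization, and Acsl1, Acsl3, Acsl4, Acad9, Etfa and Ppard with rescaling that left out Rpph1 and Rmrp. Acadvl was called in every alternative run but the one without a filter, while Eci2 and Decr1 were also lost with libraries rescaled to a common FPKM sum. Number 2 minus number 1 had a median of 0.25 over the members and −0.19 over all genes. With libraries rescaled to a common FPKM sum these medians became −0.14 and −0.55, so the members stood 0.40 above all genes, against 0.45 as deposited. That scaling called 4 of the 28 members, Acadvl, Acsl1, Ppard and Ppargc1b, and 42.2% of all genes. With it, number 2 was above number 1 in 12 members, where 20.3% of all genes were above.

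Other transcripts moved with the replicate numbers too. Of 11 tested megakaryocyte markers, 6 were called higher and 2 lower in number 2 than in number 1, against 13.3% and 27.7% of all genes. Their summed level was 651 and 682 FPKM in WT 1 and KO 1, 1777 and 1871 in WT 2 and KO 2, and 1385 and 1030 in WT 3 and KO 3, most of it Pf4, and Gp6 was listed at 0 in WT 3. Of 18 genes set to follow mitochondrial mass, such as Cs and Vdac1, 2 were called higher and 4 lower, near those shares. Their median was −0.01, against −0.19 over all genes. The part of these markers in the members' pattern was not tested, and in sorted bulk cells fewer cells of a type and less RNA per cell cannot be told apart.

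Markers of other cells also differed between the libraries. Monocyte, macrophage and dendritic cell markers had higher KO values in 9 of 11, 0 past the threshold, and summed to between 1331 and 2501 FPKM in WT and between 1725 and 2447 in KO. Mast cell and basophil markers had lower KO values in 7 of 9, 0 past the threshold, with sums between 1055 and 1546 FPKM in WT and between 651 and 1370 in KO. Neutrophil and granulocyte markers had lower KO values in 8 of 10, 0 past the threshold, but the pair medians were −0.54, −0.51 and 0.45. Their sum ran from 4011 FPKM in KO 1 to 9244 in KO 3. The sorted cells thus held other myeloid transcripts beside those of megakaryocytes. Erythroid markers had lower KO values in 6 of 7, 0 past the threshold, with sums between 110 and 161 FPKM. Their pair medians were 0.09, −0.16 and −0.31. Over all genes tested, 63.4% had higher KO values. Adipocyte and stromal markers were near 0, with a highest sum of 1.12 FPKM in KO 3 and Cxcl12 listed at 0 in every library.

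The DNA before the start sites of 4 of the 9 genes is shown because they stood together in the comparison of numbers and differ in what they carry. The sequences are RefSeq promoter windows on GRCm38.p6, which matched 25 of the 31 members, without bases in exons that GENCODE annotates. The deposited values rest on mm9, so no coordinate here was joined to them. Capitals mark AGGTCA, the half-site of PPAR and other nuclear receptors, and GGGCGG, the GC box, on either strand.
Acadvl, chr11:70015429-70015678, minus strand: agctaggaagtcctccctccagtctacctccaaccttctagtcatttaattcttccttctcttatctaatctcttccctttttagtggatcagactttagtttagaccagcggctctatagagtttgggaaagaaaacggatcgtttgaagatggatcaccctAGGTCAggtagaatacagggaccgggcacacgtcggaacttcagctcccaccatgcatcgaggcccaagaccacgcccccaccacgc
Acadm, chr3:153944644-153944893, minus strand: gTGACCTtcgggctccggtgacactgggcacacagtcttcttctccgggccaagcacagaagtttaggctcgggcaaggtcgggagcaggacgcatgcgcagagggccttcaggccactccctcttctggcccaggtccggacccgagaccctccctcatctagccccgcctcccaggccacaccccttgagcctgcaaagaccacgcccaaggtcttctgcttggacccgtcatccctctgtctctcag
Echs1, chr7:140116477-140116671, minus strand: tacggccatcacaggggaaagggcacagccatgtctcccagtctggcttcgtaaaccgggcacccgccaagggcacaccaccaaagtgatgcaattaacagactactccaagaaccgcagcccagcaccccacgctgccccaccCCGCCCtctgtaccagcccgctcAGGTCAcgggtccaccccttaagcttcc
Eci1, chr17:24426433-24426640, plus strand: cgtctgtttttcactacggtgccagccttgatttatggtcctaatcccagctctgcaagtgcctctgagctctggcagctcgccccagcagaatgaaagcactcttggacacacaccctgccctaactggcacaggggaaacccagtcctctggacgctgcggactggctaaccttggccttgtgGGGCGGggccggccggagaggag

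In the stretches shown, Acadvl, Acadm and Echs1 each hold 1 AGGTCA and Eci1 holds 0, while Echs1 and Eci1 each hold 1 GGGCGG. The part of the Echs1 window that is not shown holds another GGGCGG. Over the 250 bases before the start, both strands, AGGTCA was in 4 of 25 members with a window, the fourth being Cpt1a. It was in 14.0% of all 32851 windows and in 10.8% of the windows of tested genes. The DR1 repeat bound by PPAR with RXR, searched as a pair of such half-sites with 1 base between them and any base at the fourth place of each, was in 0 of the 25 and in 0.338% of all windows. The motif TCAAGGTCA, an extended half-site that contains AGGTCA, was in 0 and in 0.387%. GGGCGG was in 18 of the 25, in 32.7% of all windows and in 57.7% of the windows of tested genes. CACGTG, the E-box core bound by Mondo factors with Mlx, was in 0, in 6.02% of all windows and in 8.48% of the windows of tested genes. These matches describe letters in these windows and not binding.

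Acad9, Etfdh, Hadh and Acadm lie on chromosome 3, as Txnip does. Their differences between genotypes were 0.02, 0.03, 0.02 and 0.10, with SEs between 0.20 and 0.33, so the 4 did not stand out among the members.

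Around the module, 119 further lipid and mitochondrial genes in 10 lists were measured, of which 96 passed the filter. In limma 0 were called in either direction (0.0178% of all genes). At an unadjusted p under 0.05, limma gave 0 higher and 1 lower (0.676% of all genes). With the replicate number as a block it gave 3 higher and 3 lower (6.93% of all genes). Values were higher in KO for 55 and lower for 41, against 63.4% of all genes higher. The median was 0.05, against 0.06 over all genes. The same 63.4% and 0.06 are the background for each list below. Fatty acid uptake, binding and transport had 7 of 9 higher (median 0.24), but the pair medians were 0.44, 0.27 and −0.12. Fabp5, a cytosolic fatty acid carrier, was at 72.1, 64.7 and 95.7 FPKM in WT and 60.6, 50.7 and 68.8 in KO. Slc27a1, a fatty acid transport protein, was at 3.76, 5.55 and 4.10 and at 6.14, 6.90 and 4.56.

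Beside Cpt1a, the malonyl-CoA brake and the other carnitine acyltransferases gave 3 tested genes, 2 with higher values. Mlycd, which destroys malonyl-CoA, was at 11.7, 10.1 and 12.2 FPKM in WT and 11.9, 16.9 and 13.5 in KO. Crot, the peroxisomal octanoyltransferase, differed by −0.04. Cpt1b and Cpt1c, the muscle and brain forms, did not pass the filter.

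Further peroxisomal genes had 8 of 12 higher values (median 0.17). Phyh, which starts the alpha-oxidation of phytanic acid, differed by 0.37 (SE 0.26) and the peroxisomal reductase Decr2 by 0.29 (SE 0.23). The branched-chain and propionyl-CoA route had 4 of 13 higher (median −0.06), with Acad8, a dehydrogenase of valine breakdown, at 0.32 (SE 0.34) and Pcca, a propionyl-CoA carboxylase subunit, at 0.23 (SE 0.22). None of these 4 passed the threshold.

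Of 7 thioesterases, which split acyl-CoA, 3 had higher values. Them4 was at 2.46, 2.88 and 3.46 FPKM in WT and at 1.17, 0.72 and 1.06 in KO, without overlap. Its difference was −0.99 (SE 0.26; limma, adjusted p = 1.00, and 0.477 with the block), and it lies on chromosome 3. Acot8, a peroxisomal thioesterase, differed by 0.23. Lipolysis and lipid droplet genes had 6 of 7 higher (median 0.16), with the droplet coat protein Plin2 at 0.28 (SE 0.21) and the phosphatidate phosphatase Lpin1 at 0.26 (SE 0.30).

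Other lipid-sensing regulators had 11 of 14 higher values (median 0.08). Esrra, the estrogen-related receptor that works with PGC-1 coactivators on oxidation genes, was at 11.7, 6.25 and 8.47 FPKM in WT and at 13.2, 12.1 and 13.3 in KO, without overlap. The difference was 0.54 (SE 0.26; limma, adjusted p = 1.00, and 0.683 with the block). Pparg, the PPAR of fat cells, was at 1.74, 1.64 and 2.15 FPKM in WT and at 1.47, 0.37 and 1.47 in KO (difference −0.48, SE 0.31).

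Of 12 known PPAR targets, only Ucp2 and Angptl4 passed the filter. Ucp2, an inner membrane carrier, was at 104, 37.4 and 53.9 FPKM in WT and at 145, 35.5 and 74.3 in KO, and Angptl4, an inhibitor of lipoprotein lipase, differed by −0.03. The opposing pathway, fatty acid synthesis, split 6 to 5 (median 0.02), with the elongase Elovl6 at −0.42 (SE 0.40) and the desaturase Fads2 at −0.35 (SE 0.26). Mitochondrial mass genes were higher in 7 of 18 (median −0.02), the co-chaperonin Hspe1 at −0.31 (SE 0.24) and the import channel Timm23 at −0.21 (SE 0.20).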

How the data were processed

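RNA-seq was analysed in 6 libraries, 3 WT and 3 KO, grouped by their titles. The authors deposited FPKM per gene symbol; the tools named in the submitters' processing notes are Trimmomatic 0.39, FastQC, RSEM 1.2.31 and STAR 2.7.0a, with build mm9, without their roles or settings. RSEM shares reads between similar transcripts, so values of paralogs depend on each other. FPKM sums ranged from 715205 (KO 3) to 1131641 (WT 2), where Rpph1 and Rmrp took 30.4%. Differences were computed with limma 3.58.1 in R 4.3.3 (lmFit and a trended eBayes), two-sided, from log2(FPKM + 1), at a threshold of 0.05 after Benjamini-Hochberg adjustment, and the scripts were tested on simulated data. All 31 members are named; each further list gives its 2 tested genes of smallest p. Members, lists, tests and alternatives were chosen with earlier results of these data known; the comparison of replicate numbers and fits without a pair were added after the values were seen.

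Depth was estimated from the spacing of low FPKM with GENCODE lengths of another build, so it is approximate and no detection limit was computed. It was run with at least 40, 80 and 100 usable values per fit, settings chosen after estimates had been seen; those of WT 3, KO 2 and KO 3 changed with the setting. Within a genotype, each library was centred on its group; across genes, the centred WT and KO values that share a number correlated (r of 0.81, 0.59 and 0.38 for numbers 1, 2 and 3), so the numbers were taken to pair the samples; the pairing comes from the data, not the labels. No label says that the libraries are separate mice, so p-values cover only the variation among these 6 libraries, which may be technical in part. Libraries 3 also differ from the others in sex.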

Additional observations from a re-analysis of the deposited data

How the results depend on the processing

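No member was called between genotypes under any alternative run: the replicate block, pseudocounts of 0.1 and 0.5, no filter on low values or 5 FPKM, quantile normalization with or without the block, rescaling to a common FPKM sum with or without Rpph1 and Rmrp, each library left out, and the block without each pair. The smallest adjusted p of a member was 0.260 (limma, Decr1, block without pair 2). The members' median lay between −0.05 and 0.18 with a library left out. Rescaling to a common sum moved it to 0.24 and that of all genes from 0.06 to 0.22; members with higher KO values were then 26 of 28, against 86.6% of all genes, and 15 with quantile normalization, against 51.7%. Signs turned for 12 members without KO 2 and for 11 without WT 1, all of them uncalled.

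Over all genes, 1 was called higher and 1 lower. The replicate block gave 2 higher, as did quantile normalization with the block; without a filter 0 were higher. With a library left out, 0 or 1 were higher and 1 or 2 lower. The replicate block without pair 1 called 9 higher and 27 lower, without pair 2 94 and 48, and without pair 3 68 and 50. Of the further lists, 1 higher (Cd36) and 1 lower (Fads2) were called with the block without pair 2, both named after their values were seen; the block changed no other call of a member or list.

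The 9 members that differed between replicate numbers became 0 without a filter, when 0.088% of all genes were called, and 4 with a common FPKM sum. Leaving out a library gave between 4 (without KO 1) and 19 (without WT 2), with 14 without KO 2; the models then have 1 residual degree of freedom and assume the lone library varies like the others. Members stood above all genes in number 2 minus number 1 in every setting run for that comparison, by 0.30 to 0.58. Depth was only estimated, and for 3 of the 6 libraries without a stable value, so low values such as those of Ppara have no detection limit.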
